A study of Mus musculus with 20 samples.

Results

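The fatty acid oxidation and ketogenesis genes described here are 33 genes chosen by symbol from the biology of the pathway, of 24421 symbols in the kidney count table. All 33 were found, and all 33 passed the filter on low counts in every comparison. They are 23 genes of mitochondrial enzymes and carriers, 8 genes of peroxisomal proteins, and 2 genes in neither class, the cytosolic thioesterase Acot1 and the transcription factor Ppara. The proteins of 4 of them (Acsl1, Ech1, Crat and Eci2) are found in more than 1 compartment and are counted under their main one. The study measured kidney RNA after loss of Fh1, the gene of fumarate hydratase, which converts fumarate to malate in the tricarboxylic acid cycle. There were 20 libraries in 4 groups of 5: Fh1-/- at day 10, Fh1-/- at day 5, Fh1+/+ at day 10 and Fh1+/+ at day 5 after induction. Both genotypes were on a mixed C57BL/6 129/SvJ background, carried R26 CreERT2 on both alleles under the ubiquitous Rosa26 promoter, and received 3 intraperitoneal injections of 2 mg tamoxifen in corn oil at 12 weeks of age. The Fh1-/- mice carried Fh1 alleles whose exons 3 and 4 lie between LoxP sites, and the Fh1+/+ mice were littermates without floxed alleles. Each library was made from a piece of frozen kidney, from a region that no source used here names, so the cell types in it were pooled, and fewer cells of a type and less RNA per cell cannot be told apart.

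Mitochondrial beta-oxidation shortens fatty acids by a cycle of dehydrogenation, hydration, dehydrogenation and thiolysis, after the carnitine shuttle (CPT1, the translocase SLC25A20 and CPT2) has carried long acyl chains across the inner membrane. Electrons leave the acyl-CoA dehydrogenases through the electron transfer flavoprotein and its dehydrogenase, and isomerases and reductases deal with double bonds. Peroxisomes run a parallel cycle on very long, branched and dicarboxylic chains, and ketone body metabolism makes or uses acetoacetate and beta-hydroxybutyrate. The proximal tubule of the kidney draws much of its energy from fatty acids, and PPARalpha, encoded by Ppara, is a nuclear receptor that activates many of these genes.

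Library totals were 16654829 to 25001294 counts, and the 33 genes were measured as CPM, counts scaled to a common library size by trimmed mean of M values (TMM). Whole-gene counts of Fh1 did not check the labels, since they sum all exons and only exons 3 and 4 are removed. At day 10 Fh1 had 249 to 420.5 CPM in Fh1-/- kidneys, against 224 to 258 CPM in Fh1+/+ kidneys. At day 5 it had 199.7 to 239 CPM in Fh1-/- kidneys, against 219 to 265 CPM in Fh1+/+ kidneys. Fh1-/- and Fh1+/+ below therefore mean the libraries labelled so. Proximal tubule markers summed to 27210.0 to 94940.0 CPM in the 20 libraries, with none of 30 at 0. Kap alone had 18570 to 47060 CPM in Fh1-/- kidneys at day 5, so these sums rest largely on a single gene there. Fh1-/- day 10 replicates 1 and 3 stood apart from the other 18 libraries on the first principal component (42.7% of the variance), with values of -124.9 and -128.0, against -30.3 to 31.4 in the others. Their 14 tubular injury markers summed to 137440.0 and 130700.0 CPM, against 3302 to 14191 CPM in Fh1-/- replicates 2, 4 and 5 and 1396 to 2745 CPM in the day 10 Fh1+/+ libraries. Spp1 alone reached 123000 CPM in the Fh1-/- day 10 group, so the highest sums were mostly this gene. Transcripts of 4 Y-linked genes were absent from 3, 2, 2 and 1 libraries of Fh1-/- day 10, Fh1-/- day 5, Fh1+/+ day 10 and Fh1+/+ day 5, and replicates 1, 3 and 5 of Fh1-/- day 10 were those without them. At day 5 the proximal tubule sums were 53429 to 58619 CPM in libraries without these transcripts, and 69329 to 94940 CPM in libraries with them.

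Sequence was looked at for the promoters of 28 of the 33 genes (30 RefSeq entries, build GRCm38.p6, each 250 bases before to 50 bases after the start). Acaa2, Hsd17b4, Acat1, Crat and Decr1 had no entry used here. Hadha and Hadhb, which encode the alpha and beta subunits of the mitochondrial trifunctional protein, lie head to head on chromosome 5: Hadha runs on the minus strand (chr5:30118304-30155162) and Hadhb on the plus strand (chr5:30155248-30184593; GENCODE M21 on GRCm38). The 85 bases between the GENCODE gene models (chr5:30155163-30155247, plus strand) are shown because they separate the genes of 1 enzyme complex. The gap depends on the annotation, since the RefSeq promoter entry of Hadha (chr5:30154931-30155230) sets its start inside the GENCODE gene. Their G and C content is 69.4%, and the 9 CG pairs are in capitals.
Hadha-Hadhb: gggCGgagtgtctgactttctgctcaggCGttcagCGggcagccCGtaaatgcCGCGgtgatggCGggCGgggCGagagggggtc

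The motif searched was the hexamer AGGTCA and its direct repeat with 1 base between 2 copies, the arrangement that PPARalpha with its partner RXR binds, on both strands. The exact hexamer was in 4 of the 30 promoters (13.3%), against 16.3% of 32851 promoters of the same length. No promoter of the 33 genes had the direct repeat exactly or with at most 1 mismatch (0.0396% and 0.554% of all promoters), and with at most 2 mismatches it was in 3 of 30 (10.0%), against 3.86% of all promoters. Those 3 are shown with 8 bases on either side of the 13-base match and the matching bases in capitals. The Slc25a20 match starts at base 7 of the transcript on the gene's strand (chr9:108662134-108662162, plus strand), the Echs1 match 83 bases before the start on the gene's strand (chr7:140116484-140116512, minus strand), and the Etfa match 77 bases before the start on the opposite strand (chr9:55512300-55512328, minus strand).
Slc25a20: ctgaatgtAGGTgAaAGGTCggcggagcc
Echs1: gcccgctcAGGTCAcgGGTCcacccctta
Etfa: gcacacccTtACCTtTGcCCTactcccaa

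The exact hexamer, in capitals below (TGACCT where it reads on the opposite strand), was in the promoters of Cpt1a (94 bases before the start, opposite strand; chr19:3323195-3323224, plus strand), Acadvl (87 bases before the start, gene strand; chr11:70015498-70015527, minus strand) and Acadm (249 bases before the start, opposite strand; chr3:153944875-153944893, minus strand), and in Echs1, where it is the left copy of the repeat shown above. These are the genes of the first step of the carnitine shuttle and of 2 acyl-CoA dehydrogenases. At day 10 their log2 differences between Fh1-/- and Fh1+/+ kidneys were 0.45 for Cpt1a, 0.46 for Acadvl, -0.34 for Acadm and 0.04 for Echs1. A match of letters is a description and was not tested as a binding site.
Cpt1a: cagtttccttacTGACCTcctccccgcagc
Acadvl: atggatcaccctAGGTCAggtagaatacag
Acadm: gTGACCTtcgggctccggt

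The comparison of Fh1-/- with Fh1+/+ kidneys at day 10 asked how the pathway stood after Fh1 loss. None of the 33 genes passed the threshold of an adjusted p under 0.01 with an absolute log2 fold change over 0.58 in edgeR's quasi-likelihood test, which 0.0557% of the 14360 genes tested passed (4 higher and 4 lower). Most estimates were above 0: 24 of 33, with a median log2 fold change of 0.33, beside 7167 of 14360 and a median of 0.00 for all genes tested. The peroxisomal genes had a median of 0.50 (7 of 8 above 0) and the mitochondrial genes a median of 0.19 (15 of 23 above 0), and the difference between the classes was not tested. Scaling by total counts instead of TMM lowered the median of all genes by 0.168 on the log2 scale, and gave medians of 0.33 for the peroxisomal and 0.02 for the mitochondrial genes. At an unadjusted p under 0.05, 15 of the 33 genes were higher in Fh1-/- kidneys (15.1% of all genes) and 2 were lower (11.9% of all genes). DESeq2 with the same thresholds called 5 of 33 higher (3.49% of all genes) and none lower (2.05% of all genes), namely Eci1, Hsd17b4, Eci2, Decr2 and Slc25a20. The full set of estimates for both days is in the plot of log2 fold changes by compartment. Values per library below are in the order of replicates 1 to 5, and at day 10 unless another day is named.

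**Figure D1:**
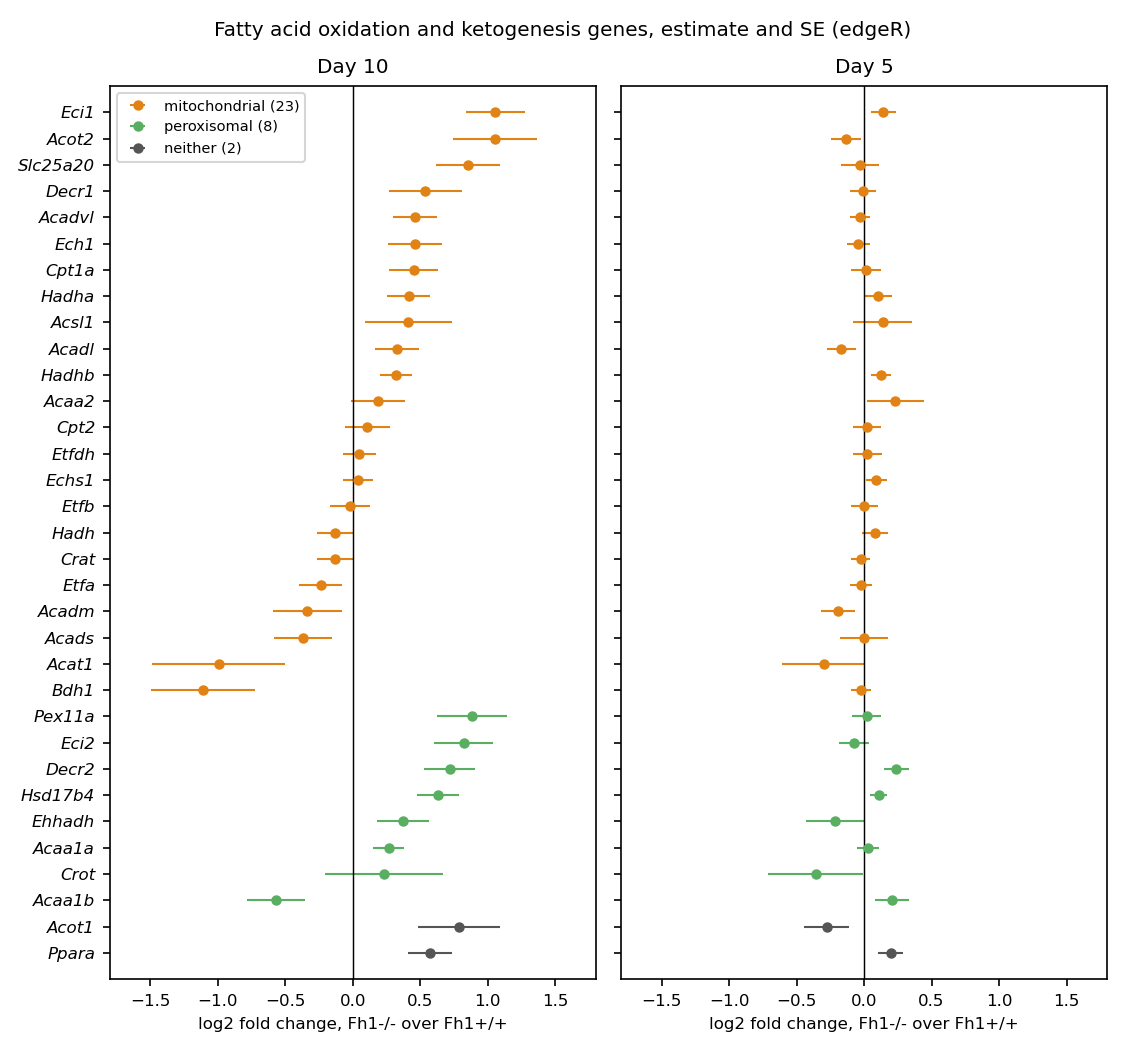
Log2 fold change of Fh1-/- over Fh1+/+ kidneys (x axis) for each of the 33 genes (rows, grouped as mitochondrial, peroxisomal and neither), at day 10 on the left and day 5 on the right. Points are edgeR estimates and bars are 1 SE, and 24 of 33 points lie above 0 at day 10, against 17 of 33 at day 5.

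Among the carnitine shuttle genes the largest estimate was that of Slc25a20, the carnitine-acylcarnitine translocase of the inner membrane (chr9:108662088-108684641). Slc25a20 had 189, 96.1, 183, 87.7 and 168 CPM in Fh1-/- kidneys, against 92.0, 64.1, 91.3, 77.6 and 71.9 CPM in Fh1+/+ kidneys. Fh1-/- replicates 1, 3 and 5 were far above every Fh1+/+ library, replicate 2 was just above and replicate 4 within their range, and the log2 fold change was 0.85 ± 0.24 (SE; edgeR adjusted p = 0.0722). Cpt1a, the rate-limiting entry enzyme of the outer membrane (chr19:3322334-3385733), had 599, 708, 578, 936 and 954 CPM in Fh1-/- kidneys, against 671, 453, 522, 547 and 531 CPM in Fh1+/+ kidneys. Its order among the Fh1-/- libraries was the other way round, with replicates 2, 4 and 5 above the Fh1+/+ range and replicates 1 and 3 within it. The log2 fold change of Cpt1a was 0.45 ± 0.18 (edgeR adjusted p = 0.148), and without replicates 1 and 3 it was 0.67 (edgeR adjusted p = 0.0951; DESeq2 adjusted p = 0.0027). Over all alternatives the adjusted p of Cpt1a ran from 0.0027 to 0.345. Cpt2, the inner-membrane transferase, had a log2 fold change of 0.11. Acsl1, a long-chain acyl-CoA synthetase that activates fatty acids, had 329.5 to 868 CPM in Fh1-/- kidneys, against 232 to 572 CPM in Fh1+/+ kidneys, and a log2 fold change of 0.41.

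The acyl-CoA dehydrogenases, which begin each round of the cycle, had estimates above 0 for the longer chains and below 0 for the shorter ones, none of them past the threshold. Acadvl, for very long chains, had 655, 462, 733, 499.7 and 625 CPM in Fh1-/- kidneys, against 502, 346, 440.3, 404 and 448 CPM in Fh1+/+ kidneys. Replicates 1, 3 and 5 were again the high ones. The log2 fold change of Acadvl was 0.46 ± 0.16 (edgeR adjusted p = 0.119). Of its exonic bases, 42.9% lie in exons of the antisense gene Dvl2, and no source used here gives the strand setting of the count step. Acadl, for long chains, had a log2 fold change of 0.33. Acadm, for medium chains and the gene of the most common human defect of the pathway, had 819.8, 964, 779.8, 1135 and 1927 CPM in Fh1-/- kidneys, against 1485, 1389.6, 1670.3, 1060.4 and 1413 CPM in Fh1+/+ kidneys. Replicate 5 was above every Fh1+/+ library and replicates 1, 2 and 3 below every one, and the log2 fold change was -0.34 ± 0.25 (edgeR adjusted p = 0.399). Acads, for short chains, had a log2 fold change of -0.37.

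The 2 genes of the trifunctional protein lie on either side of the 85 bases shown above. Hadha had 400.1, 298, 426, 309.5 and 435 CPM in Fh1-/- kidneys, against 282, 295, 336, 242 and 234 CPM in Fh1+/+ kidneys. Hadhb had 49.5, 39.9, 49.6, 40.0 and 52.8 CPM in Fh1-/- kidneys, against 33.3, 35.1, 44.0, 34.6 and 36.5 CPM in Fh1+/+ kidneys. In both genes Fh1-/- replicates 1, 3 and 5 were the highest of the 10 libraries, Fh1+/+ replicate 3 was the highest of its group, and the groups overlapped. Their log2 fold changes were 0.41 ± 0.16 for Hadha (edgeR adjusted p = 0.135) and 0.32 ± 0.12 for Hadhb (edgeR adjusted p = 0.127). Per kilobase of exon, the level of Hadhb was the lowest of the 33 genes in Fh1+/+ kidneys at day 10 (5.57 CPM per kb, against 31.8 CPM per kb for Hadha). Exon length joined the exons of all annotated transcripts of a gene (6595 bases for Hadhb and 8730 for Hadha), so this ranking depends on the annotation. Of the short-chain steps, the log2 fold changes were -0.13 for the dehydrogenase Hadh, 0.04 for the hydratase Echs1 and 0.19 for the thiolase Acaa2.

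The auxiliary enzymes for double bonds included the gene of lowest p among the 33. Eci1, the mitochondrial enoyl-CoA isomerase (chr17:24426641-24439348), had 232, 118, 231, 149 and 245 CPM in Fh1-/- kidneys, against 100.3, 78.4, 118, 86.2 and 80.6 CPM in Fh1+/+ kidneys. The 3 Fh1-/- libraries without Y-linked transcripts (replicates 1, 3 and 5) stood well above the others of their group, and only Fh1-/- replicate 2 fell below the highest Fh1+/+ library. The log2 fold change of Eci1 was 1.06 ± 0.22 (edgeR adjusted p = 0.0382), the only adjusted p under 0.05 among the 33 genes, which 1.88% of all genes reached in the same direction. DESeq2 gave Eci1 an adjusted p of 3.16e-04, and over all alternatives its adjusted p ran from 8.61e-05 to 0.110 and its log2 fold change from 0.87 to 1.19. Ech1, a dienoyl-CoA isomerase, and Decr1, a dienoyl-CoA reductase, had log2 fold changes of 0.46 and 0.54, and Decr1 was 0.07 without replicates 1 and 3. The genes of electron transfer had estimates of -0.24 for Etfa and -0.02 for Etfb, the subunits of the flavoprotein, and 0.05 for its dehydrogenase Etfdh. Etfb shares 53.0% of its exonic bases with the overlapping gene model Gm45233 on the same strand, so its counts are uncertain.

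The ketone body genes among the 33 lay below 0. Bdh1, beta-hydroxybutyrate dehydrogenase (chr16:31422280-31458901), had 51.5, 177, 61.1, 152 and 254 CPM in Fh1-/- kidneys, against 320.4, 282, 282, 270.5 and 329 CPM in Fh1+/+ kidneys. All 5 Fh1-/- libraries were below all 5 Fh1+/+ libraries, and replicates 1 and 3 were the lowest. Bdh1 was the only one of the 33 genes whose Fh1-/- libraries all lay below the Fh1+/+ libraries (3.43% of all genes). It had a log2 fold change of -1.11 ± 0.39 (edgeR adjusted p = 0.112) and -0.61 without replicates 1 and 3 (edgeR adjusted p = 0.123). Acat1, the mitochondrial acetoacetyl-CoA thiolase, had 244, 1029, 234, 890.1 and 470.1 CPM in Fh1-/- kidneys, against 1631, 612, 511, 1229 and 1652 CPM in Fh1+/+ kidneys. Its values ran over a wide range in both genotypes, and the log2 fold change was -0.99 ± 0.50 (edgeR adjusted p = 0.216); its levels by Y-linked transcripts are given below. Of 8 ketone body genes outside the 33, 4 had estimates above 0, and edgeR called none (0.0557% of all genes). An unadjusted p under 0.05 was found for 4 higher and 1 lower (15.1% and 11.9% of all genes). DESeq2 called 2 higher (3.49% of all genes). Slc16a1, a carrier of lactate and ketone bodies, had 34.1 to 349.5 CPM in Fh1-/- kidneys, against 17.9 to 40.1 CPM in Fh1+/+ kidneys (log2 fold change 2.63 ± 0.70, and 0.78 without replicates 1 and 3). The cytosolic thiolase Acat2 had a log2 fold change of 0.74 ± 0.21. Slc16a6, a ketone body exporter, had a log2 fold change of 2.26 ± 0.68. Oxct1, which activates acetoacetate for use and is named after its values were seen, had 357 to 1236 CPM, against 1276 to 1644 CPM in Fh1+/+ kidneys (log2 fold change -0.96 ± 0.33, edgeR adjusted p = 0.112).

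Of the genes that balance the acyl-CoA and carnitine pools, both thioesterases had estimates above 0. Acot2, the mitochondrial acyl-CoA thioesterase (chr12:83987861-83993873), had 57.9, 24.4, 62.2, 23.0 and 51.9 CPM in Fh1-/- kidneys, against 28.1, 15.5, 24.7, 18.8 and 17.5 CPM in Fh1+/+ kidneys. Replicates 1, 3 and 5 of Fh1-/- were above every Fh1+/+ library and replicates 2 and 4 lay within the Fh1+/+ range, and the log2 fold change was 1.06 ± 0.31 (edgeR adjusted p = 0.0796). Acot1, its cytosolic paralog on chromosome 12, had 71.1, 104, 71.9, 109 and 188 CPM in Fh1-/- kidneys, against 98.8, 42.1, 62.2, 58.9 and 49.5 CPM in Fh1+/+ kidneys. Here replicate 5 was the highest and replicates 2 and 4 came next, and the log2 fold change was 0.79 ± 0.30 (edgeR adjusted p = 0.137). The transcripts of Acot1 and Acot2 share 23.5% and 24.5% of their 50-base windows, so some reads could have been assigned to either or dropped. Crat, carnitine acetyltransferase, had a log2 fold change of -0.13.

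Of the 8 peroxisomal genes, Hsd17b4, the multifunctional enzyme that hydrates and dehydrogenates very long and branched chains, had 517, 349, 517, 399.5 and 452 CPM in Fh1-/- kidneys, against 348, 245, 308, 252 and 276 CPM in Fh1+/+ kidneys. All 5 Fh1-/- libraries were above all 5 Fh1+/+ libraries, which among the 33 genes held for Hsd17b4 alone (4.42% of all genes), and the lowest Fh1-/- value exceeded the highest Fh1+/+ value by a narrow margin. The log2 fold change was 0.63 ± 0.16 (edgeR adjusted p = 0.0583, DESeq2 adjusted p = 0.00178). Eci2, the peroxisomal enoyl-CoA isomerase (chr13:34977748-35027096), had 291, 159, 277, 201 and 245 CPM in Fh1-/- kidneys, against 170.3, 83.6, 136, 123 and 144 CPM in Fh1+/+ kidneys. The log2 fold change of Eci2 was 0.82 ± 0.22 (edgeR adjusted p = 0.0663). Decr2, the peroxisomal dienoyl-CoA reductase (chr17:26081208-26090337), had 159, 108, 157, 114 and 169 CPM in Fh1-/- kidneys, against 115, 73.4, 97.2, 73.0 and 67.3 CPM in Fh1+/+ kidneys. For Decr2 the log2 fold change was 0.72 ± 0.19 (edgeR adjusted p = 0.0673). In Eci2 and Decr2, as in Eci1, Fh1-/- replicates 1, 3 and 5 were the highest. Replicate 2 lay below the highest Fh1+/+ library in each of the 3 genes, and in Decr2 replicate 4 did as well (114 against 115 CPM).

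Pex11a, which drives the division of peroxisomes (chr7:79735957-79743131), had 48.5, 23.1, 51.5, 24.2 and 29.2 CPM in Fh1-/- kidneys, against 20.8, 13.7, 23.2, 17.1 and 19.9 CPM in Fh1+/+ kidneys. Replicates 1 and 3 were far above the rest of their group and the other 3 were close to the top of the Fh1+/+ range. The log2 fold change of Pex11a was 0.88 ± 0.26 (edgeR adjusted p = 0.0783) and 0.43 without replicates 1 and 3. Ehhadh, the bifunctional enzyme that is the classical peroxisomal target of PPARalpha in mouse liver, had 1235, 1066, 1198, 1243 and 1495 CPM in Fh1-/- kidneys, against 1209, 715, 1229, 811 and 798 CPM in Fh1+/+ kidneys. The groups overlapped, since Fh1+/+ replicates 1 and 3 lay among the Fh1-/- libraries, and the log2 fold change was 0.37 ± 0.19 (edgeR adjusted p = 0.226). The thiolases Acaa1a and Acaa1b, close paralogs whose transcripts share 26.7% and 35.5% of their 50-base windows, had estimates on opposite sides of 0: 0.27 for Acaa1a and -0.57 ± 0.21 for Acaa1b (edgeR adjusted p = 0.13). Acaa1b had 132, 217, 139, 129.9 and 189 CPM in Fh1-/- kidneys, against 312, 181, 273, 246 and 173 CPM in Fh1+/+ kidneys. Replicates 1, 3 and 4 of Fh1-/- lay below every Fh1+/+ library. Crot, carnitine octanoyltransferase, had a log2 fold change of 0.23 ± 0.43 with the largest SE of the 8 peroxisomal genes.

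Ppara itself (chr15:85734983-85802819) had 212, 232, 202, 261 and 214 CPM in Fh1-/- kidneys, against 156, 138, 209, 115 and 129 CPM in Fh1+/+ kidneys. The Fh1-/- libraries were close together, at 202 CPM or more, and 1 Fh1+/+ library (replicate 3) lay among them. Its log2 fold change was 0.57 ± 0.16 (edgeR adjusted p = 0.0755), and 0.65 without replicates 1 and 3. The plot of the 12 genes of lowest p shows every library.

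**Figure D2:**
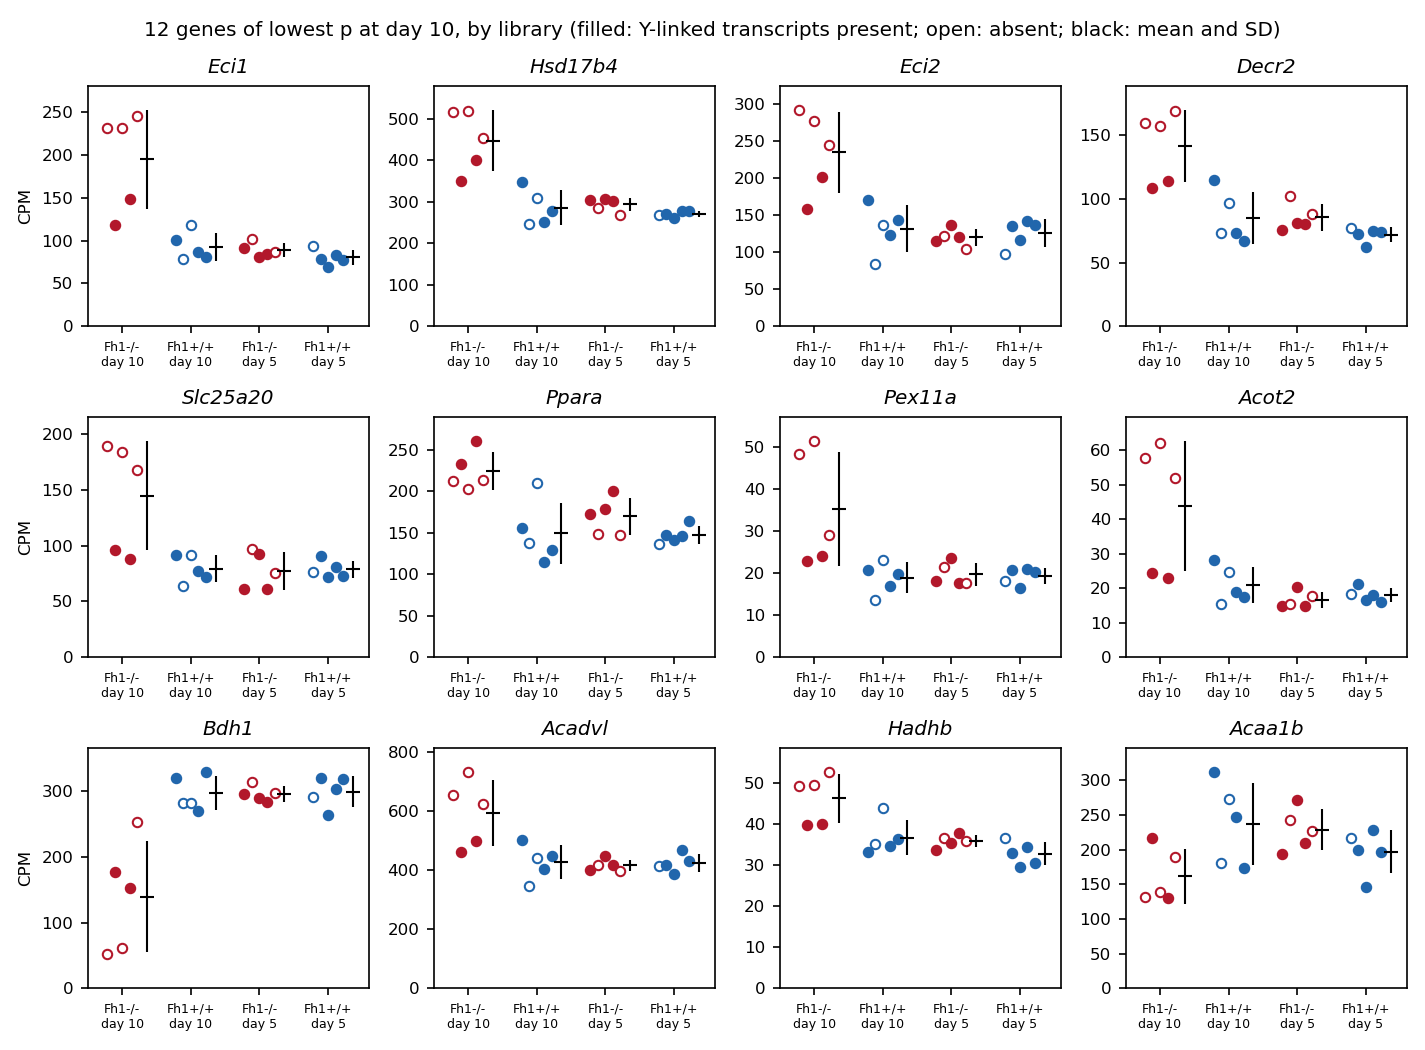
TMM-scaled CPM (y axis, from 0) of the 12 genes of lowest p at day 10 in each of the 20 libraries, by group (x axis). Red is Fh1-/- and blue is Fh1+/+, open points are libraries without Y-linked transcripts, and black marks are the mean and SD of 5 libraries. In Eci1, Slc25a20 and Acot2 the open Fh1-/- day 10 points lie above all other points, while in Bdh1 all 5 Fh1-/- day 10 points lie below the other 3 groups.

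The Fh1-/- kidneys at day 10 varied among themselves. Replicate 5 lay above all 5 Fh1+/+ libraries in 22 of the 33 genes (23.7% of all genes), replicate 1 in 16 (35.6%), replicate 3 in 14 (35.8%), replicate 4 in 9 (28.2%) and replicate 2 in 6 (17%). Below all Fh1+/+ libraries were 7 of the 33 genes in replicate 1 (36% of all genes), 5 in replicate 3 (36.6%), 3 in replicate 4 (24%), 2 in replicate 2 (17%) and 2 in replicate 5 (21.1%), and Bdh1 was among them in every replicate. Replicates 1 and 3 together lay above the other 3 Fh1-/- libraries in 9 of 33 genes (32.3% of all genes) and below them in 11 (34.2% of all genes). The 9 were Slc25a20, Acadvl, Acadl, Decr1, Acot2, Hsd17b4, Eci2, Crot and Pex11a, and the 11 were Cpt1a, Acsl1, Acadm, Acads, Hadh, Echs1, Etfa, Acat1, Bdh1, Acot1 and Ppara. Without replicates 1 and 3, edgeR called none of the 33 genes (0.0135% of all genes), and an unadjusted p under 0.05 was found for 11 higher and 1 lower (10.8% and 8.33% of all genes). The medians were then 0.42 for the peroxisomal and 0.11 for the mitochondrial genes. In that comparison DESeq2 called Cpt1a and Acot1 higher (1.57% of all genes), neither of which it had called with all 5 libraries. Cpt1a, Acot1, Hsd17b4 and Ppara did not overlap between the genotypes (7.28% of all genes higher), while Bdh1 stayed below (5.56% of all genes lower). Replicate 5 was the highest of the 5 Fh1-/- libraries in 14 of 33 genes and the lowest in none. The part of the injury markers, of the Y-linked transcripts or of the proximal tubule markers (27210.0 and 27820.0 CPM in replicates 1 and 3, against 45709 to 54692 CPM in the other Fh1-/- libraries) in these differences was not tested.

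Levels were also compared by the presence of Y-linked transcripts within the Fh1+/+ kidneys. In the 10 Fh1+/+ libraries of both days, 6 of 33 genes did not overlap between the 7 libraries with and the 3 libraries without Y-linked transcripts (18.5% of 14501 genes). That is about the share of all genes, so it is not particular to these 33, and the 6 genes were chosen after their values were seen. Crot had 515 to 896 CPM in libraries with and 217 to 231 CPM in libraries without those transcripts, and Acat1 had 1229 to 1735 and 511 to 651 CPM. Acads and Etfdh were also higher with them (309 to 399 against 195 to 253 CPM for Acads, and 192 to 238 against 165 to 181 CPM for Etfdh). Lower with them were Acsl1 (232 to 418 against 439 to 572 CPM) and Hadha (234 to 283 against 295 to 336 CPM). The same order held in Fh1-/- kidneys at day 5 for these 6 genes. At day 10 it held in Fh1-/- kidneys for Acat1, Acads and Hadha. Acsl1 overlapped there, with 489 to 598 CPM in libraries with and 329.5 to 868 CPM in libraries without Y-linked transcripts, as did Etfdh (202 to 221.5 and 207 to 221 CPM). Crot was reversed: Fh1-/- libraries without Y-linked transcripts had 923, 826 and 479 CPM, against 324 and 411 CPM in Fh1-/- libraries with them. The log2 difference of Crot between Fh1-/- and Fh1+/+ at day 10 was therefore 1.73 among libraries without and -0.90 among libraries with Y-linked transcripts, and these values rest on 3 against 2 and 2 against 3 libraries and were not tested. For Acat1 the same differences were -0.83 and -0.65, for Acsl1 -0.01 and 0.83, and for Etfdh 0.27 and -0.06. With the Y-linked level as a covariate at day 10, edgeR called none of the 33 genes (0.0557% of all genes) and DESeq2 called Eci1 and Hsd17b4 higher (2.99% of all genes). In the edgeR fit Acat1 had a log2 fold change of -0.76 ± 0.21 (edgeR adjusted p = 0.0812), Eci1 0.91 (adjusted p = 0.035) and Hadha 0.32 (adjusted p = 0.108). The direction at day 10 was the same in libraries with and without Y-linked transcripts for 23 of 33 genes.

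**Figure D3:**
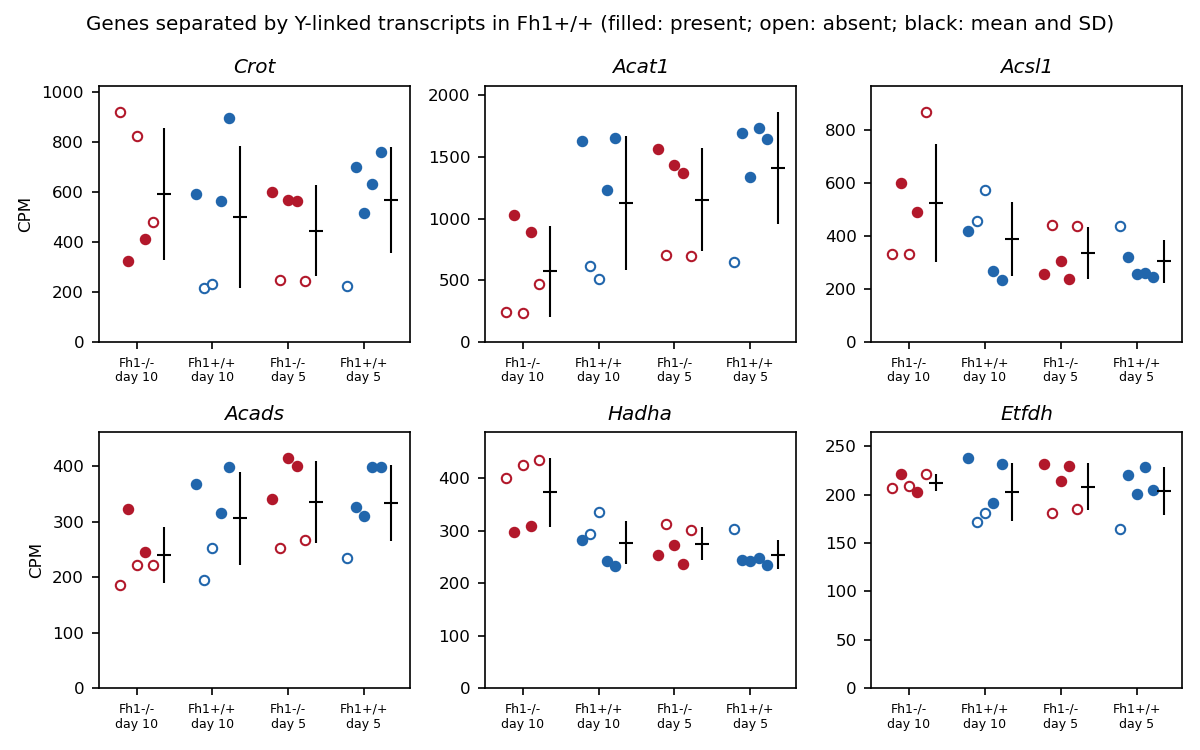
TMM-scaled CPM (y axis, from 0) of the 6 genes that did not overlap by Y-linked transcripts in Fh1+/+ kidneys, in each of the 20 libraries by group (x axis). Filled points have Y-linked transcripts, open points lack them, and black marks are the mean and SD of 5 libraries. Open Crot points lie at 217 to 249 CPM in 3 groups and at 479 to 923 CPM in Fh1-/- kidneys at day 10.

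At day 5 after induction the 33 genes were close to 0 in the same comparison. None passed the edgeR threshold (0.0347% of 14404 genes), DESeq2 called none (0.215% of all genes), and 1 had an unadjusted p under 0.05 (2.42% of all genes higher and 2.37% lower). The median log2 fold change was 0.00, with 17 of 33 above 0, and the estimates ran from -0.36 (Crot) to 0.24 (Decr2). The medians were 0.02 for the peroxisomal and 0.00 for the mitochondrial genes. Decr2, the gene with the unadjusted p under 0.05, had 76.1, 102, 81.0, 80.1 and 88.1 CPM in Fh1-/- replicates 1 to 5, against 77.0, 72.8, 62.1, 74.7 and 73.9 CPM in Fh1+/+ replicates 1 to 5 (log2 fold change 0.24 ± 0.09, edgeR adjusted p = 0.959). Ppara had 172, 149, 179, 199.8 and 148 CPM in Fh1-/- replicates, against 137, 148, 141, 146 and 164 CPM in Fh1+/+ replicates, with a log2 fold change of 0.20 ± 0.09. The groups overlapped in both genes, and in all 33 (0.909% of genes did not overlap). The next genes by p were Hadhb (0.13 ± 0.07), Hsd17b4 (0.11 ± 0.06), Acot1 (-0.27 ± 0.17) and Acaa1b (0.21 ± 0.13), with edgeR adjusted p of 1.

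Between the days, within Fh1-/- kidneys, 23 of 33 genes had estimates above 0 at day 10 relative to day 5, with medians of 0.52 for the peroxisomal and 0.14 for the mitochondrial genes and 0.01 for all genes. edgeR called none of the 33 (0.576% of 14235 genes), and an unadjusted p under 0.05 was found for 17 higher and 4 lower (17.9% and 14.4% of all genes). Of the 33, 8 were higher at an adjusted p under 0.05 whatever their fold (6.52% of all genes). These were Eci2, Eci1, Acot2, Acot1, Decr2, Hsd17b4, Slc25a20 and Acadvl. DESeq2 called 7 of them, all but Acadvl, higher (5.24% of all genes). Eci2 had 291, 159, 277, 201 and 245 CPM at day 10, against 115, 122, 137, 121 and 104 CPM at day 5, with no overlap (log2 fold change 0.95 ± 0.17, edgeR adjusted p = 0.0125). Eci1 had 91.9, 103, 81.5, 84.4 and 86.7 CPM at day 5, all below its day 10 values given above (log2 fold change 1.11 ± 0.20, edgeR adjusted p = 0.0134). Acot2 had 14.9, 15.3, 20.3, 14.9 and 17.6 CPM at day 5 and Acot1 35.5, 57.9, 42.4, 34.2 and 49.8 CPM, again all below day 10 (log2 fold changes 1.38 ± 0.29 and 1.29 ± 0.27, edgeR adjusted p = 0.0209 and 0.0211). In all, 10 of the 33 genes did not overlap and were higher at day 10 (6.83% of all genes), and Bdh1 did not overlap and was lower (5.68% of all genes): its day 5 libraries held 283 to 314 CPM. With the Y-linked level as a covariate edgeR called Eci1 and Decr2 higher (1.06% of all genes), and DESeq2 called 6 higher and Acat1 lower (4.86% and 4.33% of all genes). Without Fh1-/- day 10 replicates 1 and 3 edgeR again called none, and DESeq2 called 7 higher, Cpt1a and Acsl1 among them, and Bdh1 lower (3.08% and 2.61% of all genes).

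Fh1+/+ kidneys gave the background of the comparison between days. Among them edgeR called none of the 33 genes, as it called 0% of the 14501 genes tested, none of the 33 had an unadjusted p under 0.05 (3.97% of all genes), and DESeq2 called none (0% of all genes). The lowest p values were those of Hadhb (log2 fold change 0.16 ± 0.09), Decr2 (0.24 ± 0.14), Eci1 (0.20 ± 0.12) and Acaa1b (0.27 ± 0.18), with an edgeR adjusted p of 0.949 for each. The difference between the days in the genotype difference was tested on all 20 libraries. None of the 33 genes passed (0.0335% of 14934 genes by edgeR, and none by DESeq2, which called 1.82% of all genes), and an unadjusted p under 0.05 was found for 11 higher and 2 lower (11.8% and 8.4% of all genes). The estimates of lowest p were those of Eci1 (0.91 ± 0.24, edgeR adjusted p = 0.068), Eci2 (0.89 ± 0.25, adjusted p = 0.0798), Acot2 (1.18 ± 0.35, adjusted p = 0.0881) and Slc25a20 (0.88 ± 0.28, adjusted p = 0.113). Each was positive, so the genotype difference was larger at day 10 in the estimate but not past the threshold. DESeq2 with the Y-linked covariate called Eci1 (2.26% of all genes higher).

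Other genes of these pathways were counted from lists, at day 10. Of 22 tested PPAR target genes outside the 33, 19 had estimates above 0 with a median of 1.30 (0.85 without replicates 1 and 3). An unadjusted p under 0.05 was found for 16 of them, 15 higher and 1 lower (15.1% and 11.9% of all genes). Of the 22 edgeR called none (0.0557% of all genes) and DESeq2 called 10 higher (3.49% of all genes). Pnpla2, the triglyceride lipase, had 358 to 758 CPM in Fh1-/- kidneys, against 166 to 282 CPM in Fh1+/+ kidneys (log2 fold change 1.26 ± 0.21, edgeR adjusted p = 0.0271). Pdk4, a kinase that restrains pyruvate dehydrogenase, had 100.2 to 921 CPM, against 31.7 to 80.3 CPM in Fh1+/+ kidneys (log2 fold change 3.40 ± 0.63, edgeR adjusted p = 0.0338). The third by p, Cyp4a12b, a fatty acid omega-hydroxylase, had a log2 fold change of 1.70 ± 0.34 at 5.67 to 11.9 CPM, against 1.29 to 3.70 CPM in Fh1+/+ kidneys. Its paralog Cyp4a12a had 5.26 to 39.9 CPM in Fh1-/- kidneys at day 10 and 1.76 to 374 CPM in Fh1-/- kidneys at day 5. Whether Cyp4a12a and Cyp4a12b share reads was not checked. Of the 19 genes of peroxisomal oxidation outside the 33, 5 were above 0 (median -0.24, and -0.02 without replicates 1 and 3), with Pecr, a reductase of enoyl-CoA, at -0.91 and Nudt19, a hydrolase of CoA, at -1.11. Of 15 peroxisome assembly genes 6 were above 0 (median -0.04, and 0.01 without replicates 1 and 3). Of 26 genes of mitochondrial oxidation outside the 33, 5 were above 0 (median -0.32, and -0.09 without replicates 1 and 3), with the thioesterase Acot13 at -0.77 and the medium-chain synthetase Acsm1 at -1.34. The tricarboxylic acid cycle (3 of 20 above 0, median -0.22) and the nuclear respiratory chain (2 of 24, median -0.17) were also mostly below 0. In all of these lists edgeR called no gene (0.0557% of all genes). The PPAR and PGC-1 regulators had 10 of 24 above 0 with a median of -0.05 (0.15 without replicates 1 and 3), among them Rxra (0.65), the partner of PPARalpha. By day, in Fh1-/- kidneys edgeR called 5 of 21 tested PPAR target genes higher at day 10 than at day 5. In that comparison it also called 1 of 8 ketone body genes outside the 33 higher. Of 26 genes of mitochondrial oxidation outside the 33 it called 1 lower. Of all genes it called 0.576% in either direction.

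**Figure D4:**
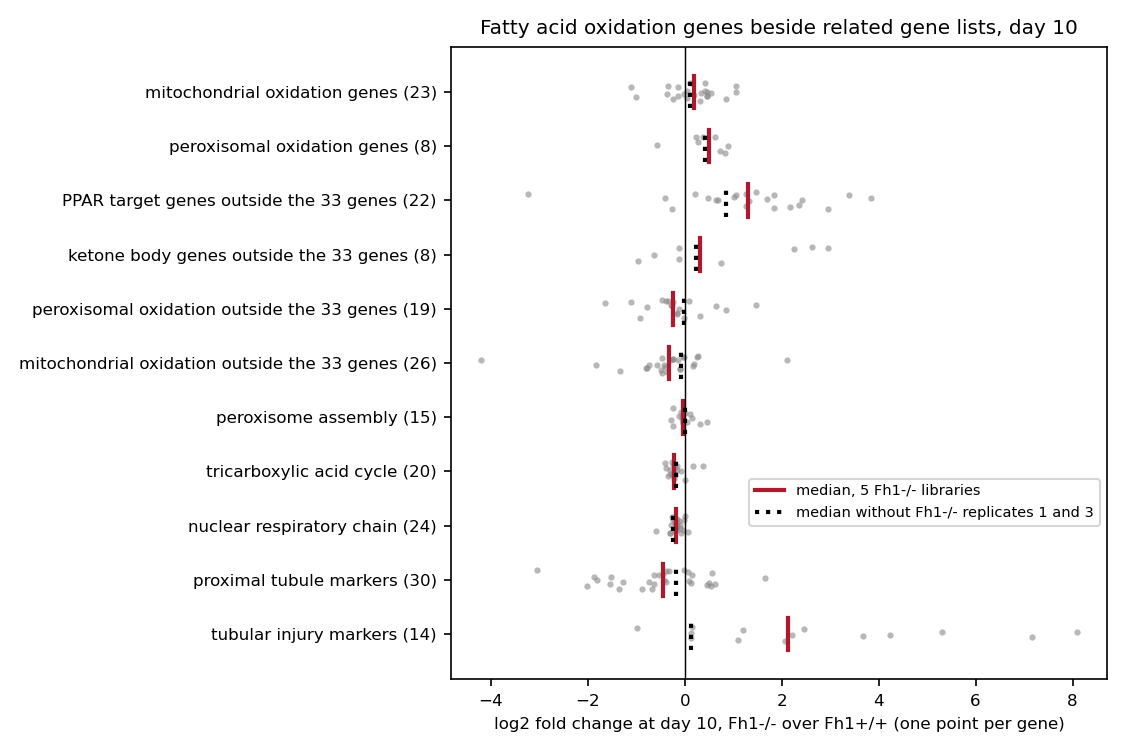
Log2 fold change of Fh1-/- over Fh1+/+ kidneys at day 10 (x axis) for the mitochondrial and peroxisomal oxidation genes and 9 related lists (rows, number of tested genes in brackets). Grey points are genes, red lines are medians over 5 Fh1-/- libraries and dotted lines are medians without Fh1-/- replicates 1 and 3. The medians are 0.50 for the peroxisomal oxidation genes and 1.30 for the PPAR target genes, and the injury markers have 2.14 and 0.12.

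Markers of cell types also had estimates away from 0 in this comparison. Of 30 proximal tubule markers 10 had estimates above 0 at day 10 (median -0.44, and -0.18 without replicates 1 and 3). They summed to 27210.0 to 54692 CPM in Fh1-/- kidneys, against 45330.0 to 88329 CPM in Fh1+/+ kidneys, and their lowest p values were those of the sulfate carrier Slc13a1 (log2 fold change 1.65) and the inositol oxygenase Miox (-1.88). Of 14 injury markers 13 were above 0, with Lcn2 (lipocalin 2) at 8.09 and 2.72 without replicates 1 and 3. Markers of the loop, distal tubule and collecting duct had 6 of 17 above 0 (median -0.46, and -0.12 without replicates 1 and 3). Leukocyte markers had 1 of 13 (median -1.07, and -0.56 without those replicates; 100.2 to 245 CPM in sum, against 211 to 343 CPM in Fh1+/+ kidneys) and endothelial and stromal markers 0 of 11 (median -0.96, and -0.46 without them). Fat cell markers had 4 of 10 above 0 at day 10 (median -0.23, and 0.12 without replicates 1 and 3), and at day 5 none of 9 (median -1.61, 434 to 1213 CPM in sum, against 1119.9 to 2247 CPM in Fh1+/+ kidneys). At day 5 Lpl alone had 362 to 1075 CPM in Fh1-/- kidneys, against 921 to 2075 CPM in Fh1+/+ kidneys. The fat cell sums therefore rest largely on Lpl. None of these markers was at 0 in all libraries of a group, and the part of cell composition in the values of the 33 genes was not tested.

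Levels were compared between genes only per kilobase of exon, from mean CPM in Fh1+/+ kidneys at day 10. The exon length joined all annotated transcripts of a gene, so the order depends in part on the annotation. The highest were Etfb (418 CPM per kb, with the overlap given above), Acadm (359), Ehhadh (319.5) and Acat1 (299.9), and the lowest Acot2 (9.52), Pex11a (5.96) and Hadhb (5.57). In Fh1-/- kidneys at day 10 the same scale gave 418 CPM per kb for Ehhadh, 417 for Etfb, 347 for Ech1, 288 for Acadm and 153 for Acat1. Per kilobase, Cpt1a was at 98.8 CPM in Fh1-/- kidneys, against 71.3 CPM in Fh1+/+ kidneys, and Ppara at 58.5 CPM, against 39.0 CPM.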

How the data were processed

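Kidney RNA was sequenced as 20 stranded polyA libraries, and the authors deposited raw read counts per gene in 1 table of all libraries, made per the study's methods with STAR 2.6.0c on GRCm38, removal of low mapping quality reads, and Rsubread with a GENCODE annotation. No source used here gives the strand setting of the count step, so a gene and its antisense partner may share reads. The table held 0 columns beyond those of the 20 samples, and library totals ranged from 16654829 to 25001294 counts.

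Counts were tested with edgeR 4.0.16 (quasi-likelihood test, TMM scaling, filterByExpr; R 4.3.3, limma 3.58.1), fitted over all genes passing the filter, with Benjamini-Hochberg adjustment over all of them. Each comparison used its own 10 libraries, and the difference between days used all 20. A gene was called at an adjusted p under 0.01 and an absolute log2 fold change over 0.58. DESeq2 1.42.0, other scalings and filters, the limma voom model, 1 fit of all groups, a Y-linked covariate and the omission of libraries were alternatives. The labels number replicates without saying that each is another animal, so p-values measure only the spread between these samples, which may in part be technical. No 2 libraries of a group agreed within sampling noise (40 pairs).

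The 33 genes and all gene lists were chosen with earlier results of these data known. The genes to be named were the 12 of lowest p at day 10, 6 at day 5 and 4 for each comparison between days. To these were added Cpt1a, Acadm, Hadha, Acat1, Bdh1, Ehhadh, Acaa1b and Ppara. Every library's value was given for these genes at day 10, and in both genotypes at day 5 for Decr2 and Ppara. Between the days it was given for the 4 genes compared within Fh1-/- kidneys. Outside the 33, up to 3 genes per list by lowest p and some of the markers were named, by ranges or estimates. Gene positions came from GENCODE M21, and promoter sequences from RefSeq. Some genes of the related lists are not reported here by name. Scripts were tested on simulated data.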

Additional observations from a re-analysis of the deposited data

Results flagged for a closer look

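In 4 of 132 groups of 5 values 1 library lay far from the others by the gap to its nearest neighbour, where chance marks about 1 group in 20. Hadha had 304 CPM in Fh1+/+ day 5 replicate 1, against 234.7 to 249 CPM in the other 4 libraries. Acaa2 had 348 CPM in the same library, against 191 to 228 CPM in the others. That library is the only one of its group without Y-linked transcripts. Echs1 had 402 CPM in Fh1-/- day 5 replicate 2, against 347 to 362 CPM in the others. Decr2 had 62.1 CPM in Fh1+/+ day 5 replicate 3, against 72.8 to 77.0 CPM in the others.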

How the results depend on the processing

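For the genes named by the rule given above, no log2 fold change changed direction under the alternatives in the comparison they were named for. The other genes were not checked in this way. Crot, Acsl1 and Etfdh had differences on both sides of 0 at day 10 when split by Y-linked transcripts, as given above. Medians near 0 did turn: leaving out 1 library, those of day 5 ran from -0.04 to 0.06 for the peroxisomal and -0.05 to 0.04 for the mitochondrial genes, and the list medians that turned without Fh1-/- day 10 replicates 1 and 3 are given beside their values. Counts below have in brackets the share of all genes called, or not overlapping, under the same setting. The number of the 33 genes called between Fh1-/- and Fh1+/+ at day 10 was 0 in edgeR (0.0557%), 5 in DESeq2 (5.54%), 1, Eci1, at an adjusted p under 0.05 whatever the fold (2.83%), 7 in 1 fit of all 20 libraries (5.61%), 2 in DESeq2 without Fh1-/- day 10 replicates 1 and 3 (2.76%), and 2 in DESeq2 with the Y-linked covariate (5.35%). Leaving out 1 library gave 0 to 1, the 1 being Eci1 without Fh1-/- day 10 replicate 2 (adjusted p = 0.00768; 1.62%). Between the days in Fh1-/- kidneys the number was 0 in edgeR (0.576%), 7 in DESeq2 (9%), 1 with total counts (0.414%), 8 at an adjusted p under 0.05 (11.6%), 2 with the Y-linked covariate (2.10%), 3 with voom (3.40%), 8 in DESeq2 without replicates 1 and 3 (5.68%), 7 in DESeq2 with the covariate (9.19%), and 0 to 5 leaving out 1 library (5 without Fh1-/- day 10 replicate 2, against 5.38%, namely Eci1, Acot2, Hsd17b4, Decr2 and Eci2). For the difference between the days it was 0 (0.0335%), with 1, Eci1, in DESeq2 with the covariate (3.78%) and 0 to 1 leaving out 1 library (Eci1 without Fh1-/- day 10 replicate 2, adjusted p = 0.00497; 296 of 15083 genes). Genes that did not overlap between genotypes numbered 2 at day 10 (7.85%), 5 without replicates 1 and 3 (12.8%), and 2 to 8 leaving out 1 library, with 8 without Fh1+/+ replicate 1 (10.4%), 7 without Fh1+/+ replicate 3 (11.1%) and 5 without Fh1-/- replicate 2 (17.5%). At day 5 they numbered 0 (0.909%), and 0 to 1 leaving out 1 library (1.27% to 2.62%). The cause of these shifts was not tested, beyond fewer libraries overlapping less easily. DESeq2 with the covariate or without replicates 1 and 3, and the overlap without them, were chosen after seeing the data. Leaving out 1 library at day 10, the medians ran from 0.43 to 0.60 for the peroxisomal and 0.07 to 0.34 for the mitochondrial genes. Replicate numbers did not pair the samples: correlations of deviations ran from -0.27 to 0.10 at day 10 and -0.51 to 0.33 at day 5, and with the replicate number as a block the number of the 33 genes called was 0 in every comparison. An estimate that missed the threshold does not show that the genotypes are alike.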

Other observations

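Genes of fatty acid uptake and carnitine supply had 8 of 17 estimates above 0 at day 10 (median -0.10, and 0.04 without Fh1-/- day 10 replicates 1 and 3). None was called by edgeR (0.0557% of all genes). Slc22a4, a carrier of ergothioneine and carnitine, had 32.6 to 42.4 CPM in Fh1-/- kidneys, against 54.2 to 76.1 CPM in Fh1+/+ kidneys (log2 fold change -0.76 ± 0.13, edgeR adjusted p = 0.0259). Bbox1, which makes carnitine, had 3.41 to 18.7 CPM, against 0.558 to 4.92 CPM in Fh1+/+ kidneys (log2 fold change 1.48 ± 0.62), and Dbi, the acyl-CoA binding protein, had a log2 fold change of 1.08 ± 0.32. Between the days in Fh1-/- kidneys edgeR called 1 gene of this list lower and none higher (0.576% of all genes in either direction).

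Genes of fatty acid synthesis and lipid storage had 11 of 23 estimates above 0 at day 10 (median -0.03). An unadjusted p under 0.05 was found for 4 higher and 4 lower (15.1% and 11.9% of all genes). None was called by edgeR (0.0557% of all genes) and 3 were called higher by DESeq2 (3.49% of all genes). The 3 of lowest p are lipid droplet genes: Fitm2, needed to form droplets, at 24.1 to 31.7 CPM in Fh1-/- kidneys, against 11.7 to 16.8 CPM in Fh1+/+ kidneys (log2 fold change 0.83 ± 0.13, edgeR adjusted p = 0.021), the coat protein Plin4 at 10.4 to 38.8 CPM, against 2.00 to 9.60 CPM (2.17 ± 0.45), and Plin3 at 62.6 to 203 CPM, against 46.5 to 69.0 CPM (1.11 ± 0.29). Acsl4, a synthetase for arachidonate outside the 33 genes, had 66.2 to 541 CPM, against 40.6 to 77.3 CPM in Fh1+/+ kidneys (log2 fold change 2.10 ± 0.56, and 0.76 without Fh1-/- day 10 replicates 1 and 3). Leukocyte markers of lowest p were Cd52 (-1.21), Fcer1g (-1.14) and Coro1a (-1.07), each lower in Fh1-/- kidneys in the estimate.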
